A study of Mus musculus with 12 samples.

Results

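The genes described here are 27 genes of cholesterol synthesis and its control, taken by symbol from a table of 26214 gene symbols. They cover the enzymes from acetyl-CoA to cholesterol, the proteins that regulate the transcription factor SREBP2, and the sterol transporter gene Stard4. All 27 were found in the table. RNA came from the immortalized mouse Leydig line mLTC-1, grown in serum-containing medium and exposed for 24 h either to 100 µM MSNBA (6 libraries) or to its vehicle DMSO alone (6 control libraries). MSNBA, a benzodioxol amine carrying a methylsulfonyl-nitrophenyl group, is given by the series as a specific blocker of Glut5, a fructose transporter. Every library comes from this 1 cell line, separate cultures are not named in the labels, and p-values therefore measure only the spread between these libraries, which may be technical.

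Cells make cholesterol from acetyl-CoA through mevalonate, isoprenoid units, squalene and lanosterol. SREBP2 is held in the endoplasmic reticulum by SCAP and INSIG proteins while sterols are plentiful. When sterols fall, it is carried to the Golgi and cut free, and it then switches on most enzymes of the pathway, together with the general factors NF-Y and Sp1. Leydig cells use cholesterol as the starting material of androgens.

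Sequences upstream of these genes are shown because SREBP2 switches on most enzymes of the pathway. The members were chosen by their place in the pathway or its control, not by a shared upstream element. Windows of 250 bases before an annotated start (RefSeq, GRCm38.p6) were found for 23 of the 27 genes, 29 windows in all. Sqle, Fdps, Fdft1 and Stard4 had no window and were not searched. A match to the sterol element TCACNCCAC was found on either strand in 1 gene, Hmgcs1, against 1.22% of all 27025 genes with a window. The NF-Y box CCAAT, which reads ATTGG on the other strand, was present in 19 of 23 genes (82.61%), against 37.49% of all genes with a window and 43.28% of the 2158 genes that both had a window and entered the expression test. The GC box GGGCGG was present in 20 of 23 genes (86.96%), against 35.36% and 66.96%. Matches of different motifs overlapped by at least 1 base in 0 of the 29 windows. Counted by window, since some genes have several, the NF-Y box was in 19 of 29 windows (65.52%), against 33.85% of 32851 windows. A match is only a string of letters, and a missing match says only that these letters are not in this window.

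The stretches below are the upstream windows of the 4 genes with the lowest p-values that had a window, and of Hmgcs1, in which the sterol element was found. They run 5′ to 3′ on the strand of the gene, and capitals mark NF-Y boxes and, in Hmgcs1, the sterol element. For Hsd17b7 the 37 bases nearest the start are left out, because they lie within the annotated span of the gene. Hmgcs1 is on the plus strand at chr13:119690101-119690350, Insig1 on the plus strand at chr5:28071162-28071411, Msmo1 on the minus strand at chr8:64733579-64733828, Ebp on the minus strand at chrX:8193513-8193762 and Hsd17b7 on the minus strand at chr1:169969243-169969455.
Hmgcs1: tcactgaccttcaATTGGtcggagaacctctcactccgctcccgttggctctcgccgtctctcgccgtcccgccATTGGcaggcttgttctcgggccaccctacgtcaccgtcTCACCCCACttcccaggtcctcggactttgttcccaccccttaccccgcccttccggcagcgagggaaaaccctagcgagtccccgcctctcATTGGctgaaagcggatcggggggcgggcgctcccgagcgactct
Insig1: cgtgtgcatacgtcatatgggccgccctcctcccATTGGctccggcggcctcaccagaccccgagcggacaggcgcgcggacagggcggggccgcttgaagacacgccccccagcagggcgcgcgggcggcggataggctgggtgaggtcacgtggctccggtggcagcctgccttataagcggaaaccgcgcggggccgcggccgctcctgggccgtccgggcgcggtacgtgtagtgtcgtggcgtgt
Msmo1: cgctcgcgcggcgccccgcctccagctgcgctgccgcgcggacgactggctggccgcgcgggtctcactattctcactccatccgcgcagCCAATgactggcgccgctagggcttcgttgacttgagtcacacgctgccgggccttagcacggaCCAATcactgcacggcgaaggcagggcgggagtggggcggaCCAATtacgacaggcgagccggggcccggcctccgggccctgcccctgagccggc
Ebp: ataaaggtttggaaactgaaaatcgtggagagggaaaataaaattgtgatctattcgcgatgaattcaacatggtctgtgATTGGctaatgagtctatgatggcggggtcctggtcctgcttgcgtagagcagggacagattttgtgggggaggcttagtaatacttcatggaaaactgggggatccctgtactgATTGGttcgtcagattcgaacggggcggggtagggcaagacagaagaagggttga
Hsd17b7: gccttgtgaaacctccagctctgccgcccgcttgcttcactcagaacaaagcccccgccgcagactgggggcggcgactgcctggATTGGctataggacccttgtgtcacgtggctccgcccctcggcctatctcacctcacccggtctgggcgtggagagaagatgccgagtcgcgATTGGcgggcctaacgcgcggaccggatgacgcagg

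The sterol element of Hmgcs1 began 137 bases before the start, between NF-Y boxes at 176 and 45 bases. Msmo1 carried NF-Y boxes at 160, 96 and 55 bases, Ebp at 170 and 55 bases, and Insig1 at 216 bases before the start. Hsd17b7, the member with the lowest fold change in the expression test, carried NF-Y boxes at 165, 73 and 12 bases, the last of them in the stretch not shown. Its upstream window held as many NF-Y boxes as that of Msmo1, whose fitted value was above 0 (edgeR adjusted p = 0.467). Whether these boxes bear on the levels was not tested.

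**Figure D1:**
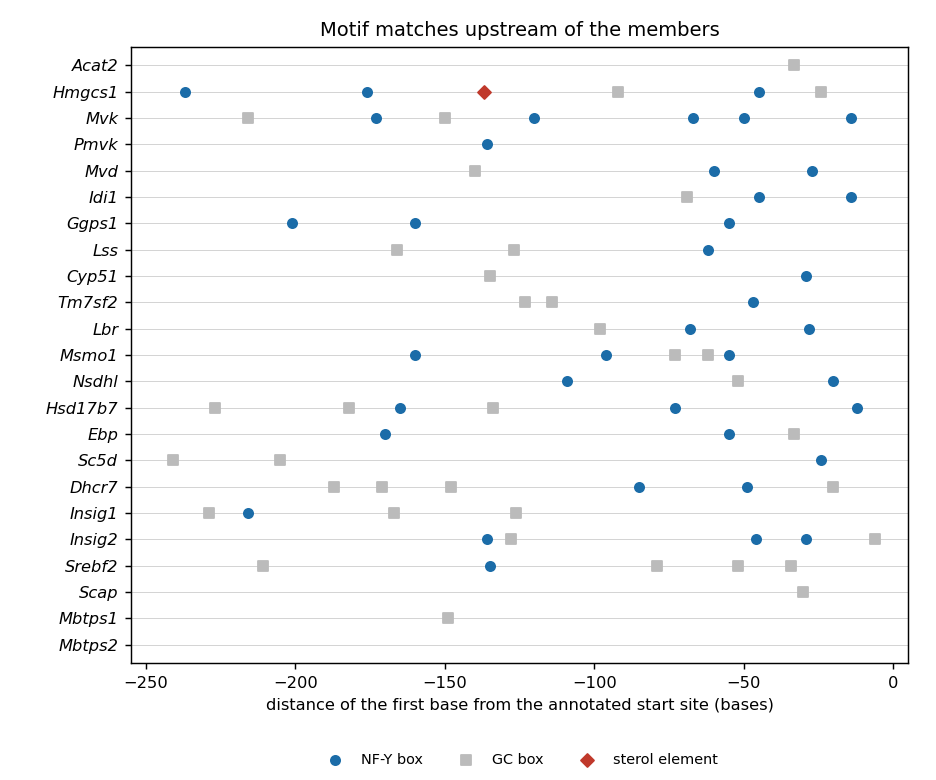
Motif matches in the 250 bases before the annotated start of 23 members, with distance from the start in bases on the x axis and genes in pathway order on the y axis. Windows of genes with several starts are drawn on the same line. Circles (NF-Y boxes) lie on 19 of 23 lines, squares (GC boxes) on 20, and the only diamond (sterol element) on the line of Hmgcs1.

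The counts of the 12 libraries totalled 59113 to 657251, and the geometric mean depth of the MSNBA libraries was 2.14-fold that of controls. After a filter on low counts, 2614 genes were tested by edgeR's quasi-likelihood test with Benjamini-Hochberg adjustment over all of them. Of the Leydig cell markers, 9 of 9 entered the test, 0 passed, and before adjustment 1, the peptide hormone gene Insl3 (log2 fold change 0.28, SE 0.12), had p under 0.05; their summed level was 8037 to 11359 CPM (counts scaled to a common library total) in controls and 7980 to 9882 CPM in MSNBA. Macrophage markers summed to 0 to 59.5 CPM in controls and 10.6 to 17.4 CPM in MSNBA, with 1 of 10 (Cd14) at 0 throughout. Endothelial markers summed to 8.54 to 50.8 and 5.51 to 21.2 CPM, and fibroblast and peritubular markers to 51.2 to 169 and 22.8 to 127 CPM. Sertoli cell markers summed to 1856 to 3230 and 2102 to 2970 CPM, but only 1 of the 8 had enough counts to be tested. This sum therefore does not show expression of the Sertoli list as a whole. In bulk RNA, fewer cells of a type and less RNA per cell cannot be told apart.

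The comparison of MSNBA with control asks how the sterol pathway of these Leydig cells differs on exposure to the compound. Of the 27 members, 21 had enough counts to be tested and 0 passed an adjusted p of 0.05, where 0.0765% of all tested genes did. Before adjustment, 4 members had p under 0.05 with a higher level in MSNBA (Sqle, Insig1, Msmo1 and Ebp) and 1 with a lower level (Hsd17b7), against a background of 4.17% of tested genes higher and 4.78% lower. That is 23.8% of the tested members, against 8.95% of all tested genes. By DESeq2 0 members passed the adjusted threshold, with 4 higher and 1 lower before adjustment, and by limma-voom 0 passed, with 2 higher and 1 lower. Over the tested members, the median log2 fold change was 0.13, against -0.0082 for all tested genes. Fitted values were above 0 for 12 members and below 0 for 9, so that 57.1% were above 0, against 48.5% of all tested genes. Groups overlapped in 21 of 21 members, while 0.65% of all tested genes showed no overlap. The members that entered the test are the better expressed ones, so these counts describe them and not all 27.

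**Figure D2:**
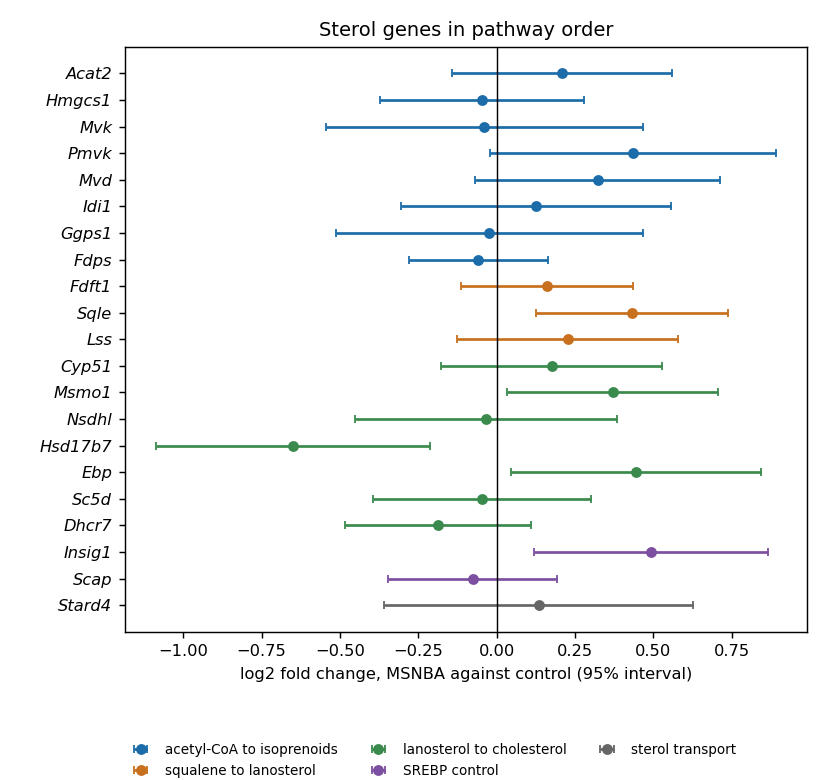
Log2 fold change of each tested member, MSNBA against control, with its 95% interval on the x axis and genes in pathway order on the y axis, coloured by step. Intervals of 5 genes (Sqle, Msmo1, Ebp and Insig1 above 0, Hsd17b7 below) exclude 0 before adjustment, and the members after lanosterol span the widest range, from -0.65 to 0.44.

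In the first part of the pathway, from acetyl-CoA to the isoprenoid units, 8 of 8 genes were tested and the median log2 fold change was 0.05, with 4 values above 0 and 4 below. None of the 8 had an unadjusted p under 0.05 by edgeR. Pmvk, the kinase that phosphorylates mevalonate phosphate, had the highest value. It measured from 85.7 to 192 normalized CPM in controls (median 126) and from 118 to 246 in MSNBA (median 171), where normalized CPM are counts scaled to a common library size over the tested genes. The control with the highest level lay above 5 of the 6 MSNBA libraries, and the log2 fold change was 0.43 (SE 0.23, edgeR adjusted p = 0.574). Mvd, which decarboxylates mevalonate diphosphate, had a log2 fold change of 0.32 (SE 0.19, edgeR adjusted p = 0.617), with 2 MSNBA libraries above all controls.

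Acat2, the cytosolic thiolase that joins acetyl-CoA units, measured 261 ± 36.8 normalized CPM in controls and 301 ± 54.9 in MSNBA (mean ± SD, n = 6 per group), a log2 fold change of 0.21 (SE 0.17). Acat2 had 521 counts over the 12 libraries and its relative Acat3 had 140, and how reads common to both were assigned is not given in the sources used here. Hmgcs1, which makes HMG-CoA and holds the only match to the sterol element among the members searched, measured 414 ± 83.2 and 389 ± 52.3 normalized CPM (SD, n = 6 per group). The fitted log2 value was -0.05 (SE 0.16), with 95% limits of 0.772-fold and 1.21-fold.

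Fdps, which makes farnesyl diphosphate at the branch between sterols and prenylation, was the most precisely measured member by its SE. It ran from 2117 to 3335 normalized CPM in controls (median 2652) and from 2253 to 3206 in MSNBA (median 2356). Its fold change lay between 0.824-fold and 1.12-fold at 95%, with a log2 value of -0.06 (SE 0.11, edgeR adjusted p = 0.914). Of its exon bases 77.4% are shared with Gm43738, annotated on the same strand in GENCODE vM21. Gm43738 is not among the 26214 symbols of the count table, and how reads from the shared bases were handled is not given. Of the MSNBA libraries, 4 lay between 2253 and 2368 and the other 2, replicates 4 and 6, at 3130.5 and 3206. Idi1, the isomerase of the isoprenoid unit, had a log2 fold change of 0.13 (SE 0.21). Mvk, mevalonate kinase, had -0.04 (SE 0.25), and Ggps1, which extends farnesyl to geranylgeranyl diphosphate, had -0.02 (SE 0.24).

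In the middle of the pathway, from squalene to lanosterol, the fitted values of 3 of 3 genes were above 0, with a median of 0.23. Sqle, the squalene epoxidase and a rate-controlling step of the pathway (chromosome 15, 59315092 to 59331193), had the lowest p of the 3. Its level was 289 to 391 normalized CPM in controls (median 341) and 388 to 583 in MSNBA (median 449). In 5 of 6 MSNBA libraries Sqle lay above every control, and MSNBA 2, at 388, lay just under control 1. The log2 fold change was 0.43 (SE 0.15, edgeR unadjusted p = 0.00689, adjusted p = 0.318), a 1.35-fold difference with a 95% interval from 1.09-fold to 1.67-fold. With any 1 of the 12 libraries left out, the value for Sqle stayed between 0.38 and 0.49 and its unadjusted p under 0.05.

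Fdft1, squalene synthase, measured 629 ± 88.0 and 704 ± 126 normalized CPM (SD, n = 6 per group), a log2 fold change of 0.16 (SE 0.14). It shares 774 exon bases, 20.9% of its own, with Ctsb on the opposite strand (GENCODE vM21), and Ctsb had 3571 counts. Without known strand, reads from the shared bases cannot be told apart, while reads from the rest of Fdft1 are not affected. Lss, lanosterol synthase, measured 403 ± 121 and 476 ± 123 normalized CPM, a log2 fold change of 0.23 (SE 0.18), with 1 MSNBA library above all controls. Without control 4 the value for Lss was 0.37 (unadjusted p = 0.0404), and without MSNBA 4 it was 0.14 (unadjusted p = 0.430).

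In the last part, from lanosterol to cholesterol, 7 of 9 genes were tested, 3 with values above 0 and 4 below, and the median was -0.03. The highest and the lowest fitted value of all tested enzymes lay here, Ebp at 0.44 and Hsd17b7 at -0.65. Msmo1, the sterol oxidase that begins removal of the methyl groups at carbon C4 (chromosome 8, 64718123 to 64733578), measured from 265 to 420 normalized CPM in controls (median 364) and from 363 to 705 in MSNBA (median 424). MSNBA 1, 4, 5 and 6 lay above all controls. The log2 fold change of Msmo1 was 0.37 (SE 0.17, edgeR unadjusted p = 0.0322, adjusted p = 0.467).

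Ebp, the sterol isomerase that moves the ring double bond (chromosome X, 8185329 to 8193512), measured from 152 to 312 normalized CPM in controls (median 191) and from 236 to 488 in MSNBA (median 278). Only MSNBA 3 and 4 exceeded the highest control, and MSNBA 4 stood apart from the next library at 330. The log2 fold change of Ebp was 0.44 (SE 0.20, edgeR unadjusted p = 0.0302, adjusted p = 0.464). Without MSNBA 4 the values were 0.33 for Ebp (unadjusted p = 0.0892) and 0.26 for Msmo1 (unadjusted p = 0.111).

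Hsd17b7, the keto-reductase that completes each round of C4 demethylation and that also reduces estrone (chromosome 1, 169949535 to 169969242), had a fitted value of the opposite sign. It measured from 132 to 241 normalized CPM in controls (median 210) and from 101 to 179 in MSNBA (median 118). In 4 of 6 MSNBA libraries Hsd17b7 lay below every control. The overlap came from control 1, at 132, and from MSNBA 4 and 6, at 136 and 179. The log2 fold change of Hsd17b7 was -0.65 (SE 0.22, edgeR unadjusted p = 0.00445, adjusted p = 0.252), a 0.637-fold level with a 95% interval from 0.470-fold to 0.862-fold. It ranked 46 of 2614 tested genes by p, ahead of Sqle at 55. With any 1 library left out its value stayed between -0.83 and -0.57. With the log2 library total in the model it was -0.41 (unadjusted p = 0.117).

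Nsdhl acts between Msmo1 and Hsd17b7 in the same C4 demethylation. Nsdhl measured 196 ± 57.3 and 187 ± 41.8 normalized CPM (SD, n = 6 per group), a log2 fold change of -0.03 (SE 0.21). The 3 enzymes of this step thus gave a positive, a near-zero and a negative fitted value. Cyp51, the lanosterol demethylase, had a log2 fold change of 0.18 (SE 0.17), with MSNBA 4 at 935 and MSNBA 6 at 753 normalized CPM against a control maximum of 641. The other 4 MSNBA libraries lay between 430 and 537 normalized CPM for Cyp51, inside the control range.

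The fitted values of the last tested enzymes were below 0. Sc5d, the desaturase that follows Ebp, had a log2 fold change of -0.05 (SE 0.17). Dhcr7, the reductase that acts last on the ring, measured 605 ± 143 and 536 ± 94.9 normalized CPM (SD, n = 6 per group). The fitted log2 value was -0.19 (SE 0.15, edgeR adjusted p = 0.728), and 3 MSNBA libraries lay below all controls. Control 2 alone, at 893, raised the control mean of Dhcr7, and without it the value was -0.06. Tm7sf2 and Lbr, which both reduce the ring double bond left by Cyp51, had too few counts for the edgeR test. Tm7sf2 had 18 counts in controls and 56 in MSNBA, and Lbr had 17 and 53. Pooled over each group these are 26.5 and 35.0 CPM for Tm7sf2 and 25.0 and 33.2 CPM for Lbr (over library totals), with overlapping exact 95% Poisson intervals of 15.7 to 41.9 and 26.5 to 45.5 CPM for Tm7sf2 and 14.6 to 40.0 and 24.8 to 43.4 CPM for Lbr.

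**Figure D3:**
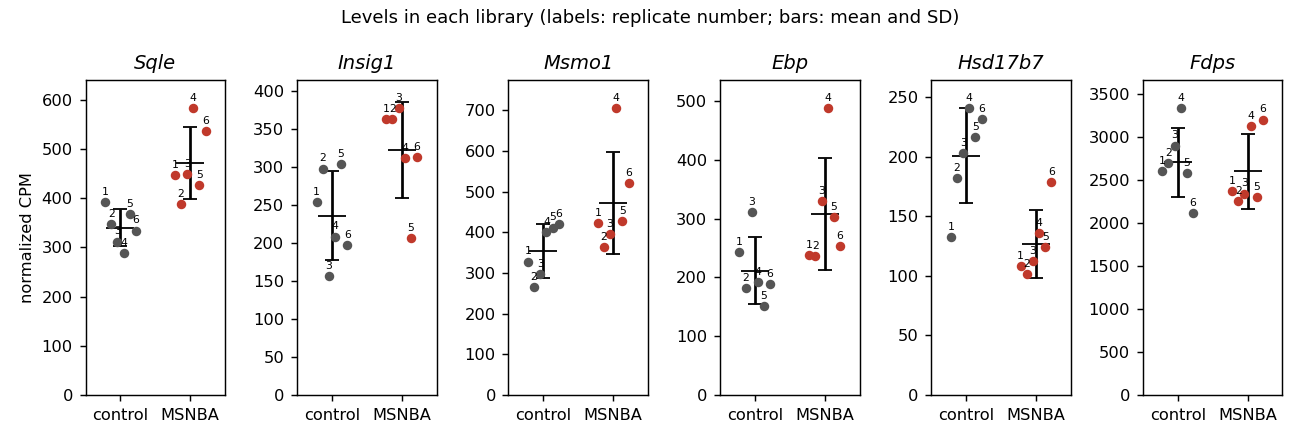
Normalized CPM in each control (grey) and MSNBA (red) library for 6 members, with numbers giving the replicate and bars the mean and SD of 6 libraries. For Sqle and Insig1, 5 of 6 MSNBA points lie above all controls, for Hsd17b7 4 of 6 lie below all controls, and for Fdps the MSNBA points stay within the control range.

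Among the regulators, Insig1, which retains SCAP and SREBP in the endoplasmic reticulum and is itself a target of SREBP (chromosome 5, 28071412 to 28078662), had the highest fitted value of all 21 tested members. It measured from 156 to 303 normalized CPM in controls (median 231) and from 207 to 377 in MSNBA (median 338). In 5 of 6 MSNBA libraries Insig1 lay above every control, and MSNBA 5, at 207, lay below the control median. The log2 fold change of Insig1 was 0.49 (SE 0.19, edgeR unadjusted p = 0.0112, adjusted p = 0.373), a 1.41-fold difference with a 95% interval from 1.09-fold to 1.82-fold. After thinning all libraries to the lowest total the value for Insig1 was 0.18 (unadjusted p = 0.493), and with library total in the model it was 0.39 (unadjusted p = 0.0672). Scap, the escort that binds both SREBP and INSIG, measured 566 ± 95.2 and 531 ± 30.4 normalized CPM (SD, n = 6 per group), a log2 fold change of -0.08 (SE 0.13) with a 95% interval from 0.786-fold to 1.14-fold.

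The other regulators were too low for the edgeR test. Insig2, the second INSIG gene, had 42 counts in controls and 88 in MSNBA, or 61.8 and 55.1 CPM pooled. Srebf2, which encodes SREBP2, had 15 and 29 counts, or 22.1 CPM (exact 95% Poisson interval 12.4 to 36.4) and 18.1 CPM (12.2 to 26.1). Mbtps1 and Mbtps2, the proteases that cut SREBP free, had 25 and 77 counts and 6 and 17 counts. Pooled levels were 36.8 and 48.2 CPM for Mbtps1 and 8.83 and 10.6 CPM for Mbtps2. Mbtps2 shares 36.1% of its exon bases with Yy2 on the same strand (GENCODE vM21), and Yy2 had 9 counts. By DESeq2, which tested all 27 members, the unadjusted p was 0.657 for Insig2 (log2 value -0.17), and the 95% interval of the fold change ran from 0.403-fold to 2.10-fold for Srebf2, from 0.676-fold to 2.32-fold for Mbtps1 and from 0.357-fold to 7.76-fold for Mbtps2. SREBP2 is controlled in large part by its cleavage, which RNA counts do not measure. The Poisson intervals cover counting error only. Stard4, a carrier of cholesterol between membranes and a known SREBP2 target, was tested, with 107 ± 33.1 and 125 ± 39.3 normalized CPM (SD, n = 6 per group) and a log2 fold change of 0.13 (SE 0.24).

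The MSNBA libraries were not alike in these genes. Summed over the 27 members, MSNBA 4 held 9057 CPM and MSNBA 6 held 8604 CPM over library totals, with exact 95% binomial intervals of 8462 to 9683 and 8173 to 9052. The other MSNBA libraries held 6652 to 7309 CPM and the controls 6748 to 7810 CPM. On a scale that weights each tested member equally, the mean log2 CPM centred over all libraries was 0.34 in MSNBA 4 and 0.24 in MSNBA 6. It ran from -0.11 to -0.0074 in the other 4 MSNBA libraries and from -0.12 to -0.012 in controls, so those 4 libraries did not stand above the controls.

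MSNBA 4 was the highest of the 12 libraries in 8 of 21 tested members (38.1%), against 10.6% of all tested genes. MSNBA 4 and 6 both lay above the other 10 libraries in 4 members (Idi1, Sqle, Cyp51 and Msmo1), or 19%, against 2.83% of all tested genes. Both libraries were singled out by their high values in these same members, so these shares only describe them and are no separate support. Total counts of these libraries, 94179 and 172131, were within the range of the others, MSNBA 4 having the lowest total of its group. With both left out, a choice made after their values were seen, the members' median log2 fold change was -0.06, with 10 values above 0 and 11 below. By edgeR 0 members then passed, and at an unadjusted p under 0.05 Sqle (0.32) and Insig1 (0.52) were higher and Hsd17b7 (-0.78) and Dhcr7 (-0.31) lower. Msmo1 (0.20) and Ebp (0.35) had unadjusted p-values of 0.237 and 0.0809 in that fit. With all 12 libraries Dhcr7 had an edgeR unadjusted p of 0.211. MSNBA 4 and 6 were left out for their high member values, which by itself tends to lower the median, so its change of sign is no separate result. The fitted value of Insig1 was 0.49 with all libraries and 0.52 without MSNBA 4 and 6. Hsd17b7 and Dhcr7 were higher in MSNBA 4 and 6 than in the other MSNBA libraries. Leaving these libraries out by itself lowers both genes, so their values in that fit are no separate result either.

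**Figure D4:**
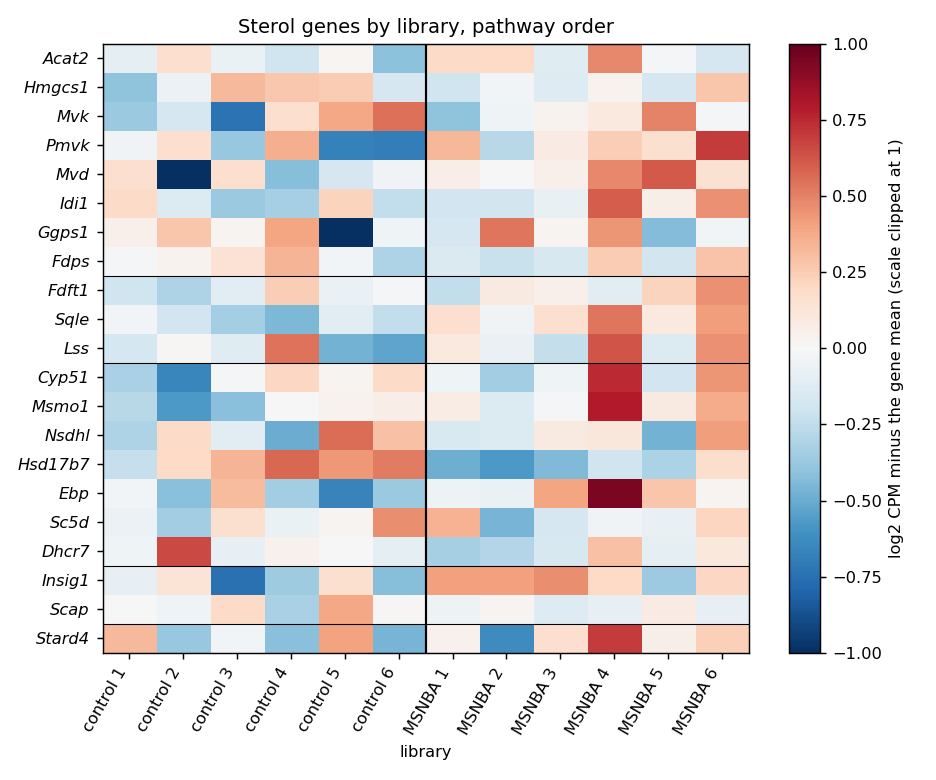
Log2 CPM of each tested member (rows, in pathway order, with lines between steps) minus its mean over the 12 libraries (columns, controls left of the line and MSNBA right of it), on a colour scale clipped at 1. In the columns of MSNBA 4 and of MSNBA 6, 15 of 18 enzymes are above their mean (red), against 3 to 11 in the other libraries, while Hsd17b7 is below its mean (blue) in 5 MSNBA columns and Insig1 above it in 5.

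Genes next to the pathway were read from lists of related function. Among fatty acid synthesis genes, which SREBP1 and in part SREBP2 control, 16 of 22 were tested and 0 passed. Before adjustment 3 were higher and 0 lower at p under 0.05, and 14 of 16 values were above 0 (87.5%, median 0.20). Over all tested genes the shares were 4.17% higher, 4.78% lower and 48.5% above 0. Acss2, which makes acetyl-CoA from acetate and is a target of both SREBP factors, measured 74.8 ± 24.9 and 138 ± 38.9 normalized CPM (SD, n = 6 per group), a log2 fold change of 0.75 (SE 0.27, edgeR adjusted p = 0.335). The others were the desaturase genes Scd2 (0.37, SE 0.12) and Scd1 (0.40, SE 0.17). The centred mean log2 CPM of the fatty acid genes was 0.17 in MSNBA 4 and 0.19 in MSNBA 6, beside 0.15, 0.11, 0.018 and 0.053 in MSNBA 1, 2, 3 and 5. In controls it ran from -0.31 to 0.020.

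Among genes for the sterol-regulated degradation of endoplasmic reticulum proteins, 6 of 14 were tested, 0 passed, and 0 reached p under 0.05 before adjustment by edgeR (median 0.02). Of genes that use isoprenoids, 2 of 15 were tested and 0 passed. Rabggta, a subunit of the enzyme that attaches geranylgeranyl groups to Rab proteins, measured 243 ± 61.6 and 171 ± 45.2 normalized CPM, a log2 fold change of -0.50 (SE 0.22, edgeR adjusted p = 0.464). Of cholesterol storage and efflux genes, 6 of 24 were tested and 0 passed, with 3 values on each side of 0. Npc2, which takes part in moving cholesterol out of lysosomes, had a log2 fold change of 0.45 (SE 0.16, edgeR adjusted p = 0.318).

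Stress response genes controlled by Atf4 vary between control libraries and were read beside the sterol genes. Of this list 17 of 25 were tested, 0 passed, and before adjustment 3 were higher and 0 lower at p under 0.05 by edgeR, which is 17.6% of the list against 4.17% of all tested genes on the higher side. Fitted values were above 0 for 14 of 17 (82.4%, median 0.20), against 48.5% of all tested genes. The 3 genes were Atf4 itself (0.60, SE 0.16, 4 MSNBA libraries above all controls), the asparagine synthetase gene Asns (0.72, SE 0.23) and the Atf4 target Trib3 (0.84, SE 0.36). Their centred mean log2 CPM was 0.33 in control 2 and 0.19 in control 4, against -0.44 to -0.24 in the other controls. The sterol members were at -0.12 in control 2, the lowest control, and at -0.012 in control 4, the highest control. Over the tested enzymes alone, control 4 was at 0.047, against -0.12 to -0.060 in the other controls. In MSNBA 6 the stress genes were at 0.35, in MSNBA 4 at 0.09 and in MSNBA 2 at 0.22, where the sterol members were at 0.24, 0.34 and -0.11. With controls 2 and 4 left out, the sterol members again gave 4 higher and 1 lower before adjustment by edgeR and 0 past the adjusted threshold. The part of stress or depth in the sterol result was not tested beyond these values.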

How the data were processed

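The deposited table holds raw counts per gene symbol for 12 libraries of polyA RNA, made by tagmentation per the labels. BWA 0.7.4.4 and the build mm10 are listed in the submitters' processing notes. The sources used here give no strand, annotation release or counting program; the table's name points to unique molecular identifiers on RefSeq genes. Library totals ran from 59113 to 657251 counts. Groups came from the labels.

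Analysis used R 4.3.3, edgeR 4.0.16, limma 3.58.1 and DESeq2 1.42.0. Genes were filtered by filterByExpr, scaled by TMM factors and tested by edgeR's robust quasi-likelihood F test (two-sided, treatment only, threshold 0.05 after Benjamini-Hochberg adjustment over 2614 genes, common biological coefficient of variation 0.143). The script was tested on simulated data. Standard errors are the log2 fold change over the square root of F. Centred log2 CPM used a prior count of 2. Normalized CPM are over counts of tested genes, and pooled CPM over library totals. Levels of different genes were not compared, since length effects of the counting are unknown. All 27 members are named; in the other lists, genes with an unadjusted p under 0.05 were named. Members and lists were chosen with earlier results of these data known. Alternatives were DESeq2, limma-voom, other scalings and filters, thinning, depth as a covariate, a replicate block and libraries left out.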

Additional observations from a re-analysis of the deposited data

Results flagged for a closer look

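Of 44 groups of 6 libraries, 2 held a library apart from the other 5 by Dixon's test, where chance gives 2.2. Ebp measured 488 normalized CPM in MSNBA 4, with the next MSNBA library at 330. Dhcr7 measured 893 normalized CPM in control 2, with the next control at 577.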

How the results depend on the processing

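No sterol member passed the adjusted threshold in any setting run, by edgeR, DESeq2 or limma-voom. Over all genes, the reported 2 calls by edgeR became 0 by DESeq2 (394 genes at an unadjusted p under 0.05), 0 by limma-voom (259), 0 with library total in the model (232) and 0 after thinning (99). They became 15 without the low-count filter, 1 with a filter of 20 counts in 6 libraries, 7 without controls 2 and 4, and 0 to 5 with 1 library left out. The labels do not say that replicate numbers pair libraries, so the reported test used no block. Same-number residual correlations ran from -0.23 to 0.48 and passed 0.1 in 3 of 6 replicate pairs, which does not decide the question. A replicate block gave 3 calls, 0 of them members. Without the low-count filter the median of the 2614 genes moved from -0.0082 to 0.14, that of the members to 0.28 and that of the 8 mevalonate and isoprenoid genes to 0.20, where 9 of 27 members were higher and 1 lower before adjustment at p under 0.05, against 3.81% and 3.16% of 19576 genes, or 13.2% and 1.26% of the 2614 genes of the reported test. The mevalonate and isoprenoid median was 0.24 with library total in the model. The median after lanosterol was 0.27 after thinning, with 5 genes left. The members' median was -0.055 without MSNBA 4 and 6. The following signs turned. Without the filter the values were Hmgcs1 0.10, Mvk 0.11, Ggps1 0.13, Fdps 0.090, Nsdhl 0.11, Sc5d 0.096 and Scap 0.068. With library total in the model they were Hmgcs1 0.18, Mvk 0.23, Ggps1 0.13, Fdps 0.071 and Nsdhl 0.099. Without controls 2 and 4 they were Hmgcs1 0.010, Ggps1 0.10 and Fdps 0.026. By DESeq2 they were Mvk 0.014 and Ggps1 0.029, and with the replicate block Ggps1 0.019. Without MSNBA 4 and 6 they were Idi1 -0.055 and Cyp51 -0.060. With 1 library left out, ranges crossing 0 were -0.17 to 0.013 for Hmgcs1, -0.21 to 0.17 for Mvk, -0.12 to 0.069 for Ggps1, -0.13 to 0.0083 for Fdps, -0.16 to 0.053 for Nsdhl and -0.17 to 0.073 for Sc5d. The cause of these moves was not tested. The low-count filter of the reported test left out 6 of 27 members, which DESeq2 and the unfiltered fit tested.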
